A study of Xenopus tropicalis with 26 samples.

Results

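Single early gastrula embryos of Xenopus tropicalis from clutch C were compared with those from clutch B. The comparison used 5 embryos per clutch, 10 of the 26 samples of the series, and they were chosen by their clutch as the sample titles give it. All were whole, untreated embryos at Nieuwkoop-Faber stage 10.25, 7 hours after fertilisation, and polyadenylated RNA of each was sequenced as a library of its own. The series also mapped histone H3K4me1 in dissected germ layers, which is not used here, and it holds 5 embryos of a further clutch, A, whose values are set beside the others below. No strain, parent or fertilisation date is given for any clutch. With a single clutch on each side, effects of the parents, the fertilisation and the handling cannot be told apart.

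A clutch is a batch of eggs laid and fertilised together, so its embryos share the cytoplasm and RNA that the mother loaded into the eggs as well as parental alleles. At the start of gastrulation an embryo holds both these maternal transcripts, many of which are being cleared, and transcripts of its own zygotic genome, which is activated at the mid-blastula transition. Germ layers are being specified at this time. A whole embryo is a mixture of cell types, and fewer cells of a type cannot be told apart from less RNA per cell.

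Expression was measured as TPM, a length-corrected share of each library, for 26550 gene models. Of these, 12547 had a mean of at least 1 TPM over the 10 embryos and were tested, and 14003 lay below, 3730 of them at 0 in all 10 embryos. The models carry no gene symbols and 0 of their IDs matched the reference gene table, so members are described by level and pattern, no gene function is given, and the marker genes of the germ layers could not be looked up. Between 17510 and 18590 models per embryo were above 0 TPM and between 12272 and 12500 reached 1 TPM. The number at 1 TPM or more was 12352 ± 69.2 in clutch B and 12451 ± 41.1 in clutch C (SD, n = 5 each), a difference that did not pass an exact two-sided permutation test after adjustment over 4 such measures (p = 0.0317, adjusted p = 0.111). TPM keeps no record of read numbers, so the depth behind the values is unknown.

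A large part of the gene models differed between the clutches, most of them by little. In limma's moderated test on log2(TPM + 1), 6189 of the 12547 models (49.3%) differed at a Benjamini-Hochberg adjusted p under 0.05, 2603 (20.7%) higher and 3586 (28.6%) lower in clutch C. Differences of at least 2-fold, here 1 on the log2(TPM + 1) scale, were found for 721 of them (5.75%), 397 higher (3.16%) and 324 lower (2.58%). Higher calls thus made up 42.1% of all calls but the larger part of those past 2-fold. The balance of small differences moved with scaling: the median difference over all tested models was -0.04 (log2) as deposited and -0.01 after median-ratio scaling, when 49.4% of calls were higher. The counts past 2-fold kept more models higher than lower under each scaling tried.

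**Figure D1:**
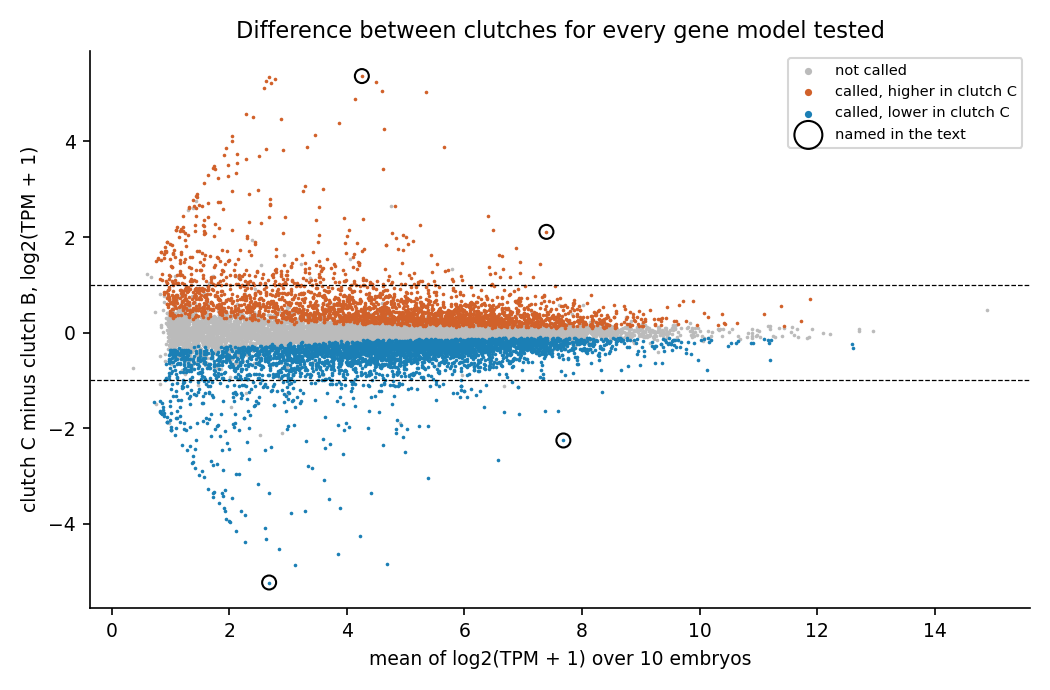
Each point is 1 of 12547 gene models, with its mean log2(TPM + 1) over the 10 embryos on the x axis and the difference of clutch C minus clutch B on the y axis. Dashed lines mark 2-fold, which 397 called models passed upward and 324 downward, and circles mark the 4 models named in the text.

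Most called differences were small. Their median size was 0.41 on the log2(TPM + 1) scale, their quartiles were 0.27 and 0.65, and the smallest called difference was 0.09. A difference of less than 1.5-fold was found for 4327 called models, or 69.9% of them. At the other end, 195 models differed by at least 4-fold (106 higher and 89 lower), 76 by at least 8-fold (40 and 36) and 28 by at least 16-fold (18 and 10). These are folds of TPM + 1, and for models near 0 in 1 clutch their size depends on the pseudocount. The models called higher together held between 15.2% and 16.5% of all TPM in the embryos of clutch B and between 20.2% and 21.0% in those of clutch C. Those called lower held 28.4% to 29.4% in clutch B and 22.4% to 23.3% in clutch C. These sums describe models chosen by the same contrast and are given without a test. The models past 2-fold weighed little, with 1.06% of TPM in clutch C against 0.308% in clutch B for the higher ones, and 0.294% against 0.955% for the lower ones.

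Without a fitted model, the 5 values of clutch C lay wholly above those of clutch B for 1750 models (13.9%) and wholly below for 2587 (20.6%). The balance again moved with scaling, to 2124 above and 2190 below after median-ratio scaling and 2071 and 2270 after quantile normalization. Of the 4337 models (34.6%) as deposited, 52 were not called by limma. Conversely, 1904 called models overlapped between the clutches, 63 of them with a difference of 2-fold or more.

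The share of models called lay between 38.6% and 54.2% in classes of expression level, whereas the share past 2-fold was lower in each higher class. Of 2544 models at a mean of 1 to 5 TPM, 40.4% were called, with 527 higher and 502 lower, and 12.1% were called and past 2-fold. In the class from 20 to 100 TPM, the largest with 4590 models, 54.2% were called, 963 higher and 1527 lower, but 2.96% passed 2-fold. From 100 to 1000 TPM, 47.7% of 2246 models were called and 1.16% passed 2-fold. The 83 models at 1000 TPM or more included 12 called higher and 20 called lower, none of them past 2-fold, and the largest of these differences was 0.78. Of the 397 and 324 models past 2-fold, 208 and 167 were at 1 TPM or more in all 10 embryos. The median standard error of the difference was 0.15 in the lowest class and 0.05 in the highest. The direction of calls within a class depended on the scaling, in a comparison added after seeing the data. As deposited, 466 models were higher and 606 lower at 100 to 1000 TPM, and after median-ratio scaling 598 were higher and 469 lower. At 20 to 100 TPM the counts were then 1156 higher and 1321 lower. At 1000 TPM or more they were 21 higher and 14 lower after this scaling. They were 560 higher and 468 lower at 1 to 5 TPM, and 707 higher and 840 lower at 5 to 20 TPM.

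**Figure D2:**
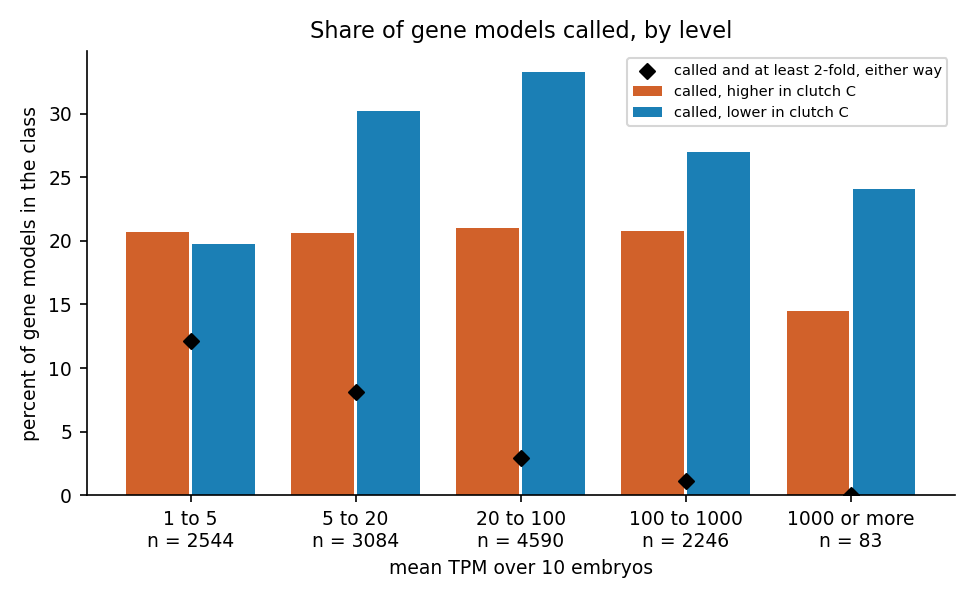
Bars give the percent of gene models called higher (orange) or lower (blue) in clutch C within 5 classes of mean TPM over the 10 embryos, and diamonds the percent called and at least 2-fold different. Higher calls were 14.5% to 21.0% of each class, lower calls were at most 33.3%, at 20 to 100 TPM, and the share past 2-fold ran from 12.1% down to 0%. All are on the deposited scale. After median-ratio scaling the calls at 100 to 1000 TPM were 598 higher and 469 lower, and those at 1000 TPM or more 21 higher and 14 lower.

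The 4 models named below were chosen among called models whose 5 values did not overlap between the clutches. Their calls and lack of overlap were thus fixed by the choice, and their intervals take no account of it. Among such models, the largest difference upward on the log2(TPM + 1) scale was that of Xetrov90026308m.g. Its TPM was 117.84, 116.52, 131.61, 125.48 and 118.38 in the embryos of clutch C and 2.19, 4.24, 0.75, 1.49 and 2.19 in those of clutch B. The clutches did not overlap, and clutch B was the one set apart, since the embryos of clutch A lay between 142.65 and 191.7 TPM. The mean was 122 ± 6.42 TPM in clutch C and 2.17 ± 1.3 TPM in clutch B (SD, n = 5 each), a ratio of means of 56.2. On the log2(TPM + 1) scale the difference was 5.37 ± 0.23 (SE), with a 95% interval of 4.87 to 5.87 (limma adjusted p = 1.1e-08). Its rank depends on the pseudocount of 1, since the next model, at 5.35, was listed at 0 in every embryo of clutch B.

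The largest gain in mean TPM among models past 2-fold was that of Xetrov90028369m.g, whose siblings varied more. It was at 382.26, 240.62, 339.1, 414.14 and 398.13 TPM in clutch C and at 94.71, 54.63, 59.11, 133.5 and 80.02 TPM in clutch B. The lowest embryo of clutch C was above the highest of clutch B, and clutch A, at 27.06 to 40.48 TPM, was below both. The means were 355 ± 69.7 and 84.4 ± 31.9 TPM (SD, n = 5 each), 4.2 times as much in clutch C. The log2 difference was 2.11 ± 0.25 (SE), with a 95% interval of 1.55 to 2.67 (limma adjusted p = 9.53e-05).

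Downward, Xetrov90029837m.g had the largest difference on the log2(TPM + 1) scale and was close to absent outside clutch B. It reached 45.7, 34.4, 42.62, 38.07 and 31.81 TPM in clutch B and only 0.03, 0.04, 0.05, 0.06 and 0.05 TPM in clutch C. Clutch A held at most 0.06 TPM and was listed at 0 in 3 embryos. The difference was -5.23 ± 0.1 (SE) on the log2(TPM + 1) scale, with an interval of -5.45 to -5.00 (limma adjusted p = 1.57e-12). With clutch C this close to 0 the size is set by the pseudocount, at -8.04 with 0.1 and -3.10 with 5, and no fold is given.

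The largest loss in mean TPM among models past 2-fold was in Xetrov90019553m.g. Clutch B had 426.73, 451.72, 449.92, 462.57 and 451.19 TPM, and clutch C had 89.64, 94.72, 102.23, 93.86 and 85.67 TPM. Every embryo of clutch C was far below every embryo of clutch B, whereas clutch A, at 423.2 to 479.66 TPM, overlapped clutch B. The means were 448 ± 13.1 TPM in clutch B and 93.2 ± 6.20 TPM in clutch C (SD, n = 5 each), 4.81 times as much in clutch B. The log2 difference was -2.26 ± 0.05 (SE), with an interval of -2.36 to -2.15 (limma adjusted p = 2.48e-12).

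**Figure D3:**
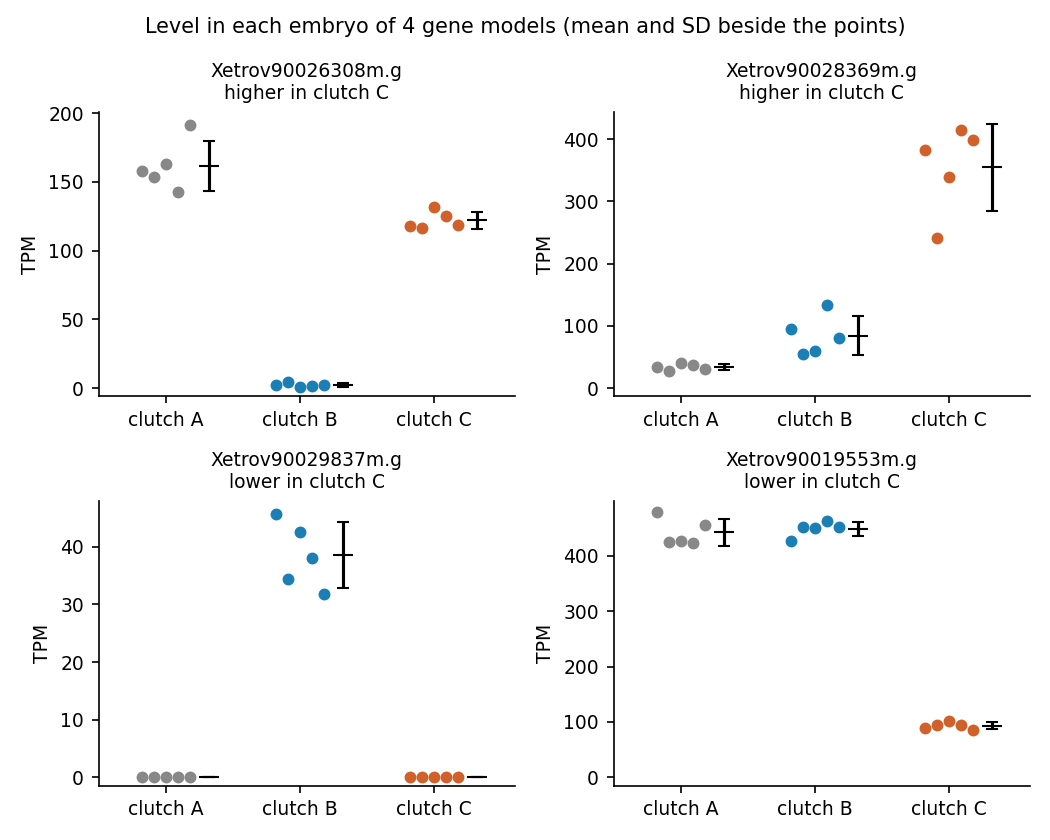
Points are single embryos, with TPM on a linear axis and the mean and SD of 5 embryos beside them. Clutch C was above clutch B for Xetrov90026308m.g and Xetrov90028369m.g, and below it for Xetrov90029837m.g and Xetrov90019553m.g. These models were chosen among called models without overlap between the 2 clutches, so the lack of overlap in each panel was fixed in advance.

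The 10 largest differences in each direction on the log2(TPM + 1) scale, among called models without overlap, fell into a few patterns. Upward, 5 of the 10 models were at 85.9 to 288 TPM in clutch C and at 0.75 to 7.19 TPM in clutch B, and all 5 were also high in clutch A, at 108 to 473 TPM. The other 5 were at 27.8 to 51.1 TPM in clutch C, where no embryo of clutch B exceeded 0.42 TPM and none of clutch A 1.26 TPM. These models were thus either low in clutch B among 3 clutches or high in clutch C among 3 clutches. Downward, 7 of the 10 were high in clutch A as well as B and at most 7.24 TPM in clutch C. The remaining 3 were at 31.8 to 146 TPM in clutch B and at most 4.8 TPM in any embryo of clutches A and C.

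Some models were listed at 0 in every embryo of 1 clutch and present in every embryo of the other. Of the 12547 tested models, 15 were listed at 0 throughout clutch B and reached 1 TPM or more in all 5 embryos of clutch C. Another 11 were listed at 0 throughout clutch C and did so in clutch B. Each passed the minimum mean of 1 TPM over the 10 embryos only through the clutch where it was present. Models present there at little more than 1 TPM fell below this minimum, so the lowest medians given here follow partly from the filter. All 26 were called by limma, which adds no support, since the same values were used to choose them. A value of 0 in a table of TPM can be a failed estimate as well as an absent transcript, so no fold is given. The first 15 had medians in clutch C from 1.86 to 38.83 TPM, with a median of 6.36. The 11 models listed at 0 in clutch C had medians in clutch B from 2.00 to 19.43 TPM, with a median of 3.96.

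Clutch A was more often at 0 in the first set than in the second, in counts that were not tested. Of the 15 models listed at 0 in clutch B, 9 were at 0 in all 5 embryos of clutch A, and 2 were at 1 TPM or more in all of them. Of the 11 models listed at 0 in clutch C, 1 was at 0 in all embryos of clutch A, and 7 were at 1 TPM or more in all of them. One model of the first set stood out in clutch A, where its embryos ran from 0 to 68.55 TPM with a median of 35.25, while the embryos of clutch C ran from 5.94 to 12.42 TPM. A wider look at models under 1 TPM in all 5 embryos of 1 clutch and at 10 TPM or more in all 5 of the other gave 13 models in each direction. Clutch A was under 1 TPM throughout for 6 of the 13 present in clutch C and for 2 of the 13 present in clutch B. It was at 10 TPM or more throughout for 3 and 9 of them.

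**Figure D4:**
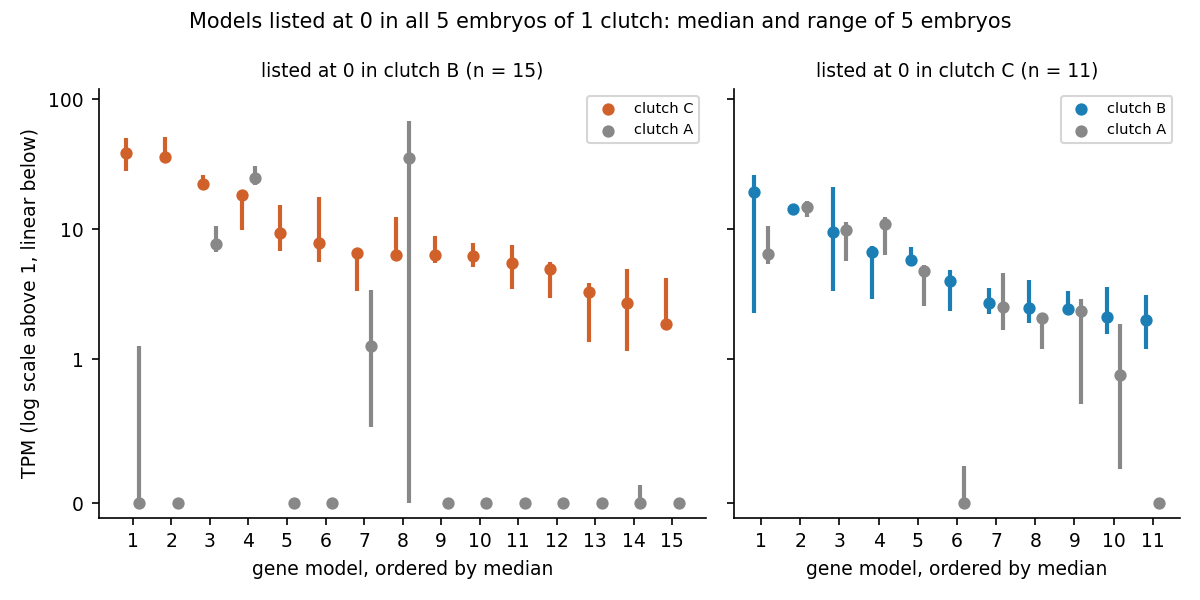
Points are medians and lines the range of 5 embryos in TPM (log scale above 1, linear below) for the models listed at 0 in all embryos of clutch B (left, n = 15) or clutch C (right, n = 11). Grey marks clutch A, which was at 0 throughout for 9 models on the left and for 1 on the right.

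Among all models past 2-fold, clutch A, which was not part of the fit, lay more often near clutch B. Its mean log2(TPM + 1) was nearer to clutch B for 292 of the 397 higher models (73.6%) and for 213 of the 324 lower models (65.7%). The values of clutch A overlapped those of clutch B but not of clutch C for 224 higher and 147 lower models. They overlapped clutch C but not clutch B for 52 and 70 models. Clutch A overlapped both for 44 and 53 models, and neither for 77 and 54. Its mean lay outside the span from B to C, beyond clutch B, for 112 higher and 60 lower models, and beyond clutch C for 36 and 36. No share over all tested models is set beside these counts, so they describe the models past 2-fold alone. None of them was tested.

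**Figure D5:**
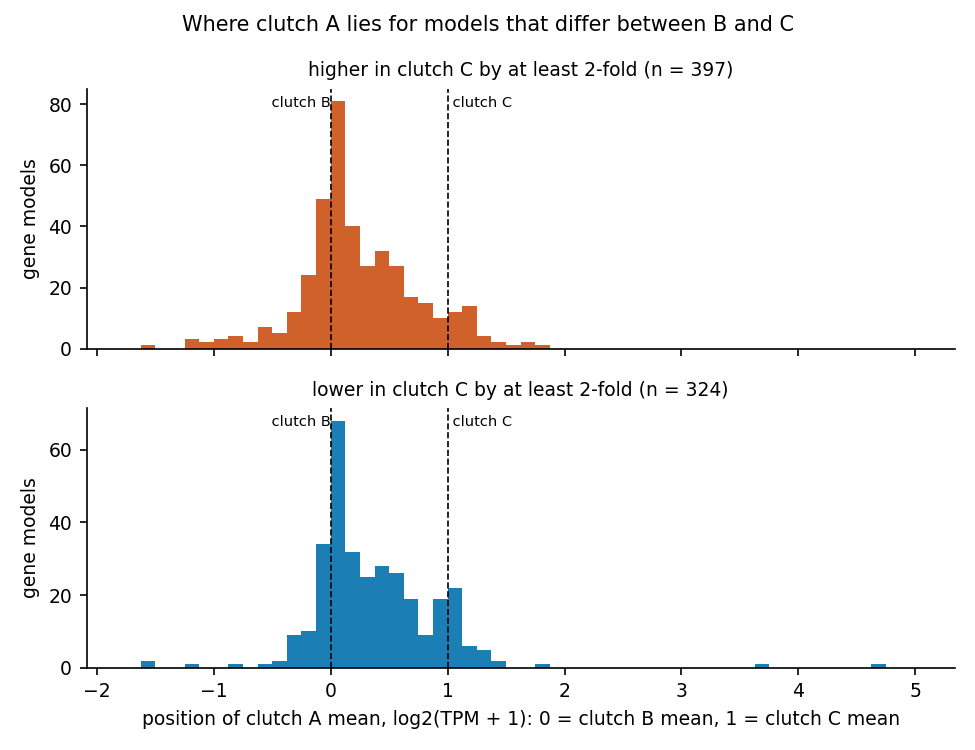
Histograms place the mean log2(TPM + 1) of clutch A on a scale from the mean of clutch B (0) to that of clutch C (1) for models called higher (top, n = 397) or lower (bottom, n = 324) by at least 2-fold. Most of these models lie nearer to clutch B, 292 of 397 and 213 of 324, and 105 and 111 lie nearer to clutch C. The share over all tested models is not shown.

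Variation among siblings was close in clutches B and C. Over 10003 models whose mean reached 5 TPM, the median standard deviation of log2(TPM + 1) was 0.109 in clutch B and 0.113 in clutch C, and the median SD over mean of TPM was 7.86% and 8.13%. In clutch A, which played no part in choosing these models, the same values were 0.128 and 9.19%. The standard deviation was higher in clutch C than in clutch B for 5258 models (52.6%). It reached 0.5 in clutch B alone for 113 models, in clutch C alone for 91, and in both for 53, while 97.4% of models stayed below in both. The difference between the clutches was larger than the pooled sibling standard deviation for 6880 of the 10003 models (68.8%) and larger than 5 times this value for 974 (9.74%). The difference is one of means of 5 embryos and the standard deviation that of single embryos. Some models would thus exceed it without any difference between clutches, and how many was not estimated. Correlations of log2 values across the 12547 models ran from 0.986 to 0.991 for 10 pairs within clutch B, from 0.985 to 0.990 for 10 pairs within clutch C and from 0.949 to 0.958 for 25 pairs of embryos from different clutches. They describe these libraries, and models are not independent replicates.

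The most abundant model was the same in all 10 embryos and varied widely among siblings. Its TPM was 41208, 24175, 22359, 21506 and 23440 in clutch B and 48833, 56653, 25447, 19974 and 41543 in clutch C. The clutches overlapped, with 3 embryos of clutch C above the highest of clutch B and 1 below the lowest of clutch B. The embryos of clutch A lay between 24767 and 39515 TPM. The difference was 0.48 ± 0.32 (SE) on the log2 scale and did not pass the test (limma adjusted p = 0.243). The 10 most abundant models of each embryo held 7.81% ± 0.651 of TPM in clutch B and 8.94% ± 1.31 in clutch C (SD, n = 5 each; exact two-sided permutation p = 0.0873, adjusted p = 0.116). When TPM were rescaled without the 10 models most abundant over these embryos, a step added after seeing the data, 45.7% of calls were higher.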

How the data were processed

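The authors deposited a table of TPM values, 1 column per embryo, for 26550 gene models. Values of each column add up to 1000000 within 0.75. RSEM 1.2.12 and Bowtie2 2.2.7 are named for these samples, per the submitters' processing notes. Per the labels' protocols, cDNA was synthesised by Smart-seq2 and tagmented. The sources used here do not name the genome build, the annotation or the strand. Read numbers are unknown, and p-values measure only the spread among siblings of 1 clutch each.

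Models with a mean of at least 1 TPM over the 10 embryos of clutches B and C were fitted with limma 3.58.1 in R 4.3.3 (lmFit, eBayes with trend and robust) on log2(TPM + 1), which understates the change of low models. The fit used these 10 embryos, and adjustment (Benjamini-Hochberg) covered all 12547 models. The step was tested on simulated data. Exact tests came from scipy 1.17.1 and figures from matplotlib 3.10.9, and pandas 2.3.3 and numpy 2.4.6 (Python 3.11.15) gave the remaining values. The exact tests allow no p below 0.00794. Of the tested models, 80 in 24 groups had values identical to another model in all 15 columns, as after a split of shared reads. Of these 80, 42 were called and 17 were called past 2-fold. The shares of all tested models were 49.3% and 5.75%, so such repeats were more frequent among models past 2-fold than among the tested models at large. Each was counted as a model of its own. The balance of 397 higher and 324 lower models past 2-fold was not recounted with each group taken once. None of the 4 named models was among these 80.

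Named models had, in each direction, the largest log2 difference and the largest difference in mean TPM past 2-fold, among called models without overlap. The members and rules were chosen with earlier results of these data known. Alternatives were other pseudocounts, filters, scalings and eBayes settings, all 15 embryos in the fit, a block for the sample number, and the omission of each embryo in turn.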

Additional observations from a re-analysis of the deposited data

Results flagged for a closer look

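Embryo 1 of clutch B lay far from its siblings in the share of TPM held by its 10 most abundant models, 8.97% against 7.41% to 7.58% in the other 4 embryos. The most abundant model alone was at 41208 TPM in this embryo and at 21506 to 24175 TPM in its siblings. Both gaps exceeded Dixon's 95% critical value of 0.71 for 5 samples (ratios of gap to range of 0.89 and 0.865). They were the 2 such cases among 18 groups of 5 values examined, the first includes the second, and chance flags about 1 in 20 groups. The 2 values of this embryo lay within the range of clutch C, at 7.52% to 10.4% and 19974 to 56653 TPM. In clutch A the ranges were 7.79% to 9.03% and 24767 to 39515 TPM.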

How the results depend on the processing

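Each difference of a named model kept its direction and its call under all 20 alternatives. These models were chosen as called and without overlap in the same embryos, so leaving out an embryo could not reverse a direction. With pseudocounts of 0.1 and 5, the size was -8.04 and -3.10 for Xetrov90029837m.g, and 5.94 and 4.16 for Xetrov90026308m.g. With the 10 leave-one-out fits, calls ran from 2362 to 2706 higher and from 3212 to 3513 lower in clutch C. The other alternatives gave 1828 to 3042 higher and 2726 to 3584 lower calls. Counts past 2-fold depended on the pseudocount and the filter by construction: 157 higher and 134 lower with a pseudocount of 5, 553 and 465 with 0.1, and 151 and 119 among models with a mean of at least 10 TPM. With 5 TPM counted as present, 9 models were listed at 0 in clutch B and 2 in clutch C. The median sibling standard deviation was 0.0947 in clutch B and 0.0985 in clutch C among models of at least 20 TPM. Leaving out each embryo gave 0.0966 to 0.113 in clutch B and 0.104 to 0.116 in clutch C, so the order of the clutches is not firm. The number of models above 0 TPM, 83.6 more in clutch C on average, ranged over the omissions from -38.9 (without embryo 3 of clutch C, exact permutation test, adjusted p = 0.841) to 231.1. Deviations of same-numbered embryos of the clutches correlated between -0.07 and 0.146, and 2 of the 5 embryos of clutch B correlated best with their own number. So few pairs cannot settle whether the sample numbers pair the embryos. With the number as a replicate block, calls were 2471 higher and 3336 lower, and 5637 of the 6189 calls were kept with the same direction.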

Other observations

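Several gene models were listed at 0 in some siblings of a clutch and present in others. Chosen after their values were seen, 5 models in clutch B and 5 in clutch C were listed at 0 in 1 or more siblings and at 5 TPM or more in every other. In clutch C, 1 of these was at 0 in 1 embryo and at 11.6 to 29.9 TPM in the other 4, while all embryos of clutch B were listed at 0. A further model was at 0 in 2 embryos of clutch C and at 15.7 to 21.7 TPM in 3, with at most 0.02 TPM in clutch B. In clutch B, 1 model was at 11.62 TPM in a single embryo and at 0 in its 4 siblings and in all of clutch C. Of the 5 models of clutch B, 2 had the same values as each other in every embryo of that clutch, at 0 in 1 embryo and 7.14 to 14.03 TPM in 4, so they do not count as separate observations. No test was made.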
